A study of Danio rerio with 15 samples.

Results

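SWI/SNF chromatin remodelling complexes, the BAF and PBAF assemblies, were examined subunit by subunit in larval zebrafish pronephric ducts that carried or lacked a mutation in one of their own genes, actl6a. The subunits were a list of 35 zebrafish gene symbols, and a symbol was measured through the RefSeq accession with the highest summed count among those that a RefSeq gene table lists for it. Of the 35 genes, 28 had a row in the count tables, which together hold 18545 symbols. There were 7 sibling libraries, labelled WT, and 8 libraries labelled actl6a knockout, called mutants here, all at 72 h post fertilization. Both groups came from incrosses of a CRISPR/Cas9 mutant line in the transgenic Na, K-ATPase alpha1A4:GFP background, in which the pronephric epithelium is green. The labels do not say whether heterozygotes were among the siblings, what the mutation is, or whether libraries came from separate clutches, so p-values measure only the spread between these libraries. Each group of 15 embryos was dissociated with collagenase, and approximately 10 duct fragments were picked by their fluorescence. All siblings were sequenced under one index and all mutants under another, and for each value below these factors, index and genotype, cannot be told apart.

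SWI/SNF complexes use the energy of ATP to slide or eject nucleosomes, which opens or closes regulatory DNA to transcription factors. A motor ATPase, encoded by smarca4 or smarca2, is joined by an actin-related protein, a scaffold of SMARCC, SMARCD and SMARCB1 subunits, and accessory proteins that define the assembly. ARID1 and DPF proteins mark canonical BAF, ARID2, PBRM1, BRD7 and PHF10 mark PBAF, and BRD9 with BICRA or BICRAL marks non-canonical BAF. In mammals, neurons that leave the cell cycle exchange ACTL6A for its paralog ACTL6B.

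Levels are in CPM, read counts divided by library size on a fixed scale, with library sizes adjusted by trimmed mean of M values (TMM) factors. Library totals ranged from 1583052 to 4013852 counts, and a count of 0 allows up to 3 counts, which is 0.747 to 1.90 CPM. The 5 libraries with the highest totals, sibling replicate 1 and mutant replicates 4, 5, 6 and 8, also had the most detected accessions of their groups. Genotypes were compared with edgeR's quasi-likelihood test over 12914 accessions that passed a filter on low counts, and a gene was called at a Benjamini-Hochberg adjusted p under 0.05. Log2 fold changes are mutant over sibling. These are bulk samples, so fewer cells of a type and less RNA per cell cannot be told apart.

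Of the 28 subunit genes with a row, 19 were tested and 9 did not pass the filter. The untested genes were actl6b, smarcb1b, smarcd2, smarcd3b, dpf2, ss18, bcl11ab, pbrm1 and bicral. In 7 of these 9 the summed count over 15 libraries was 6 or less, while bcl11ab reached 37 and bicral 93. The genes smarcd3a, smarce1, arid1aa, arid1b, bcl11ba, brd9 and bicra had no row under an accession of the gene table and were not analysed here. A low count or a missing row went with the number of transcripts the gene table lists for a gene. Among protein-coding genes with 1 listed transcript 51.7% reached 100 counts, against 25.2% of those with 7 or more. Among the subunit genes these numbers were 6 of 7 and 1 of 7. The gene table matched 61.4% of the accessions in the count tables, so a row under an accession it does not list would be missed. The part of transcript number or of unlisted accessions in these low counts and missing rows was not tested. Neither a low count nor a missing row is read here as absence of the transcript.

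**Figure D1:**
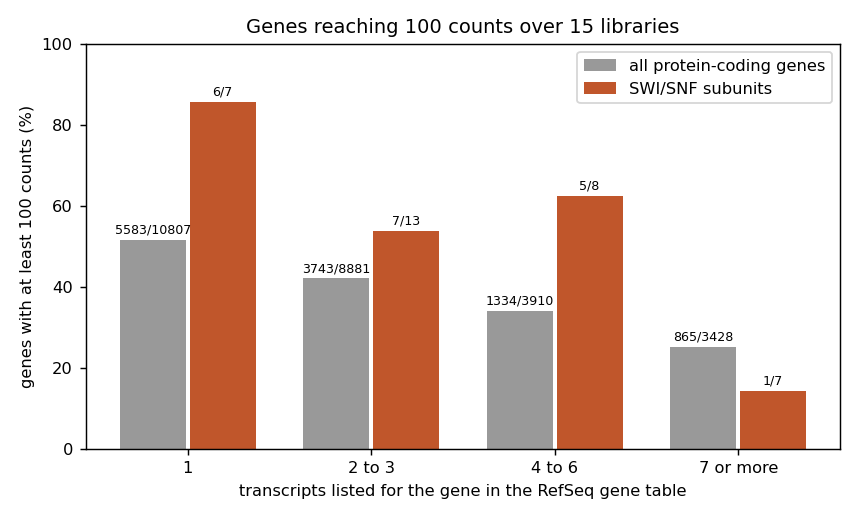
Share of genes with at least 100 counts over the 15 libraries (y axis, %) by the number of transcripts listed in the RefSeq gene table (x axis), for all protein-coding genes (grey) and the 35 SWI/SNF subunit genes (orange), with genes reaching 100 counts over all genes of the class above each bar. The share is 51.7% at 1 transcript and 25.2% at 7 or more in all genes, and 6 of 7 and 1 of 7 in the subunits, where the classes between do not fall in order.

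The targeted gene actl6a, which encodes the actin-related subunit, had its 8 mutant values below the lowest sibling value. Its counts were 290, 175, 155, 224, 96, 156 and 187 in sibling replicates 1 to 7, and 39, 24, 44, 144, 144, 24, 25 and 120 in mutant replicates 1 to 8. Scaled to the sibling mean of 84.2 ± 10.9 CPM (SD, n = 7), the mutant libraries held 34.2, 19.9, 23.7, 42.3, 46.2, 11.7, 15.2 and 43.1% in replicates 1 to 8. Every mutant library still held actl6a counts above the floor of 3. Mutant replicates 6 and 7 were lowest and replicates 4, 5 and 8 highest, and the groups did not overlap. The log2 fold change was -1.70 (SE 0.24, edgeR adjusted p = 0.000245). Non-overlap with all mutants below every sibling was found in 0.736% of tested accessions. Of all counts on the 28 subunit genes, actl6a took 4.78 to 7.16% in siblings and 0.745 to 2.97% in mutants. Its paralog actl6b had 0 counts in all 7 siblings and 3, 1 and 1 counts in mutant replicates 5, 6 and 7. Both groups were at or under the floor of 3 counts, so no difference in actl6b was detectable at this depth.

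Neither ATPase gene was called. smarca4a, the zebrafish counterpart of mammalian SMARCA4 (BRG1), was at 116, 134, 109.5, 98.9, 100.4, 100.3 and 100.3 CPM in sibling replicates 1 to 7. In mutant replicates 1 to 8 it was at 87.9, 99.1, 96.6, 107, 99.4, 121, 108 and 97.4 CPM. The ranges overlapped, with 3 of 8 mutants below every sibling. The log2 fold change of smarca4a was -0.09 with a 95% interval of -0.30 to 0.12, the narrowest among the 19 tested subunits. For smarca2, the alternative ATPase, the lowest, median and highest levels were 70.7, 82.2 and 86.6 CPM in siblings and 27.3, 70.005 and 90.9 CPM in mutants. The low value of 27.3 CPM was mutant replicate 1, which had the lowest library total. Of 8 mutants, 5 lay below every sibling and 1 above, and the log2 fold change was -0.24 (interval -0.59 to 0.10, edgeR adjusted p = 0.315). At an unadjusted p under 0.05 and by DESeq2 or voom with quality weights, 0 of these 2 genes passed as well.

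**Figure D2:**
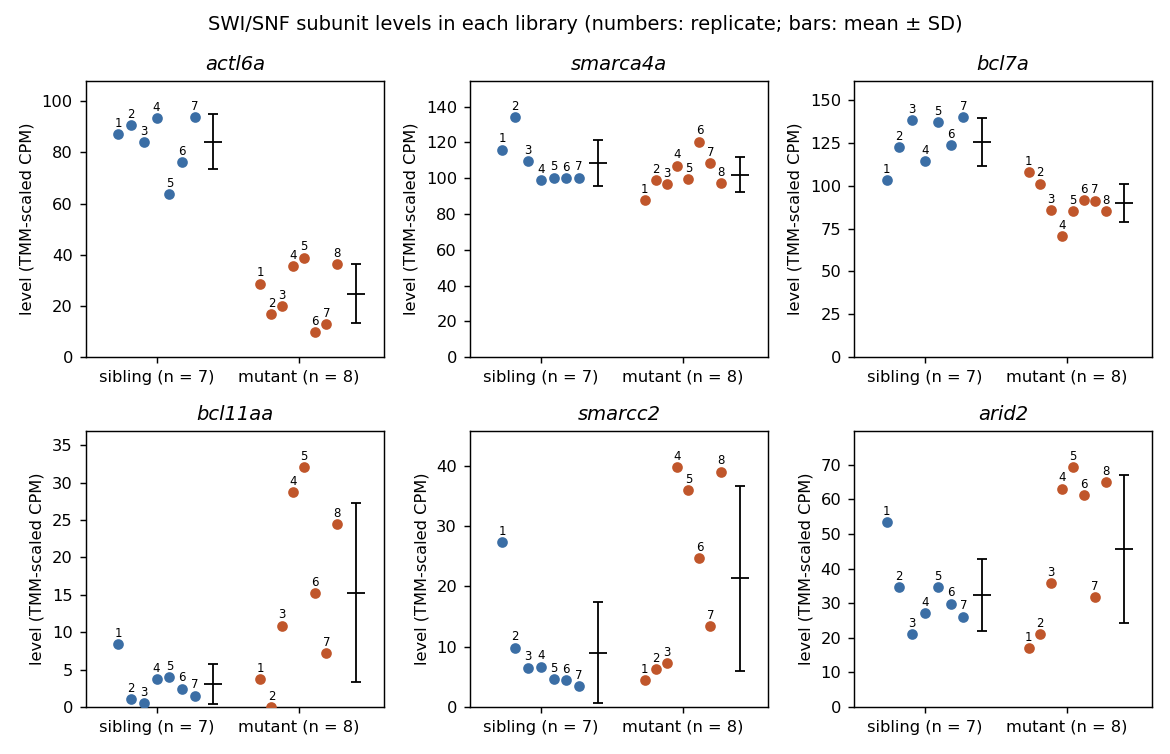
Levels of 6 SWI/SNF subunit genes (y axes, TMM-scaled CPM from 0) in 7 sibling (blue) and 8 mutant (orange) libraries, with replicate numbers above the points and the mean ± SD at the right of each group. actl6a is lower in every mutant library, smarca4a overlaps between the groups, and bcl11aa, smarcc2 and arid2 are highest in mutant replicates 4, 5, 6 and 8 and, among siblings, in replicate 1.

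Among shared core and scaffold genes, 0 of 5 tested were called by edgeR, 0 by DESeq2 and 2 by voom with quality weights. At an unadjusted p under 0.05 there was 1. Over all 12914 tested accessions edgeR called 19.2%, DESeq2 19.9% and voom 43.1%, and 4395 had an unadjusted p under 0.05. smarcc1a, which encodes a scaffold subunit on which the complex is built, had log2 fold change -0.08 (interval -0.33 to 0.16), and all of its mutant values of 81.2 to 104 CPM lay within the sibling range of 71.8 to 121 CPM. Its paralog smarcc1b was at 28.4 to 57.5 CPM in siblings and 22.9 to 54.2 CPM in mutants (log2 fold change -0.11, interval -0.55 to 0.34). smarcd1, which encodes a subunit that contacts transcription factors, had -0.05 (interval -0.30 to 0.20). Its mutant values spread further than those of siblings, from 125 to 200.3 CPM against 136 to 177 CPM, with 3 mutants below and 2 above every sibling. smarcb1a, the counterpart of the human tumour suppressor SMARCB1, had -0.30 (interval -0.67 to 0.06), with 123, 131 and 189 CPM as the lowest, median and highest sibling values and 84.4, 126 and 163 CPM in mutants. Mutant replicates 4, 5 and 8 made up the 3 values of smarcb1a below every sibling.

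The remaining scaffold gene, smarcc2, had a larger fold change and a wider spread. Its lowest, median and highest levels were 3.51, 6.51 and 27.4 CPM in siblings and 4.43, 19.01 and 39.8 CPM in mutants. The sibling maximum was replicate 1, and the 4 highest mutants were replicates 4, 5, 6 and 8, at 24.7 to 39.8 CPM, while the other mutants had 4.43 to 13.3 CPM. The log2 fold change of smarcc2 was 1.23 (SE 0.52, interval 0.14 to 2.33), and it was not called (edgeR adjusted p = 0.105). Its value depended on these libraries. Without sibling replicate 1 it was 1.93 and passed the threshold (edgeR adjusted p = 0.0156), and without mutant replicates 4, 5, 6 and 8 it was -0.38 (edgeR adjusted p = 0.770). Over all 27 alternatives run for smarcc2 the adjusted p ranged from 0.00765 to 0.770.

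BCL7 proteins are small accessory subunits found in BAF and PBAF assemblies alike. bcl7a was at 103, 122, 138, 114, 137, 124 and 140.0 CPM in sibling replicates 1 to 7, and at 108, 101, 85.7, 70.5, 85.1, 91.7, 91.3 and 85.3 CPM in mutant replicates 1 to 8. Every mutant except replicate 1 lay below every sibling, so the groups overlapped only through mutant replicate 1 and sibling replicate 1. bcl7a fell by 0.49 on the log2 scale (SE 0.11, interval -0.72 to -0.26, edgeR adjusted p = 0.00517), from a mean of 126 ± 13.8 (SD, n = 7) to 89.8 ± 11.3 CPM (SD, n = 8). The call was lost without mutant replicates 4, 5, 6 and 8 (-0.43, edgeR adjusted p = 0.0541) and kept when sibling replicate 1 was left out too (-0.47, edgeR adjusted p = 0.0266). Over its 27 alternatives the adjusted p of bcl7a ran from 0.000242 to 0.0541. The related genes were not called. bcl7ba had -0.07 (interval -0.43 to 0.28), and its mutant values of 66.3 to 143 CPM reached beyond the sibling range of 83.9 to 117 CPM on both sides. bcl7bb had -0.35 (interval -1.02 to 0.31), with sibling values from 18.6 to 63.1 CPM. With the number of detected accessions as a term bcl7bb was at -0.999 and was called lower (edgeR adjusted p = 0.0455), and without mutant replicates 4, 5, 6 and 8 it was at -1.06 and not called, within a range of adjusted p from 0.0455 to 0.809 over 27 alternatives.

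For canonical BAF, 4 of the 10 listed genes were tested, and edgeR called 1 of the 4, against 19.2% of all tested accessions. DESeq2 called 1 of the 4, against 19.9% of all, and voom with quality weights 2, against 43.1%. bcl11aa, which encodes a zinc finger protein that represses fetal globin genes in humans and that joins BAF complexes, was at 8.42, 1.04, 0.542, 3.76, 3.99, 2.45 and 1.51 CPM in sibling replicates 1 to 7. In mutant replicates 1 to 8 it was at 3.69, 0, 10.9, 28.7, 32.1, 15.2, 7.18 and 24.5 CPM. The 5 mutant replicates 3, 4, 5, 6 and 8 lay above every sibling. Mutant replicate 2 had a count of 0, which the floor of 3 counts does not separate from sibling replicates 2, 3 and 7. Those siblings had 2, 1 and 3 counts. The groups overlapped, and no subunit gene had all mutants above every sibling, which held for 1.57% of tested accessions. bcl11aa rose by 2.30 on the log2 scale (SE 0.57, edgeR adjusted p = 0.00932). It passed the filter through 6 mutant libraries and 1 sibling library, so its test was possible only because mutants were high. When any of mutant replicates 3 to 8 was left out, bcl11aa no longer passed the filter and was not tested. With the number of detected accessions as a term the log2 fold change was 0.82 and the call was lost (edgeR adjusted p = 0.263). Over the 18 alternatives in which it was tested the adjusted p ran from 0.00229 to 0.263.

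The other tested canonical BAF genes were not called. arid1ab, which encodes a large DNA-binding subunit, had a log2 fold change of 0.21 (interval -0.21 to 0.63). Its 4 mutant values above every sibling, 91.0 to 104 CPM, were those of replicates 4, 5, 6 and 8, against a sibling range of 42.6 to 85.4 CPM. dpf3, which encodes a PHD finger protein that in zebrafish and mammals is known from heart and muscle, had 0.83 (interval -0.10 to 1.75), with 10.4 to 38.2 CPM in siblings and 2.95 to 54.2 CPM in mutants. Mutant replicate 1 was the one value of dpf3 below every sibling. The neuronal paralog dpf1 was low in both groups, with medians of 5.96 and 7.01 CPM, and its log2 fold change of -0.01 (0.043 with upper quartile scaling) had an interval of -0.89 to 0.88, so a change of less than that size was not resolved.

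PBAF genes gave 0 calls among 4 tested, with 0 at an unadjusted p under 0.05 and 0 by DESeq2. By voom with quality weights 1, arid2, was called, against 43.1% of all tested accessions. arid2, which encodes the subunit that sets PBAF apart from canonical BAF, had a log2 fold change of 0.53 (interval -0.10 to 1.16). Its lowest, median and highest levels were 21.1, 29.8 and 53.5 CPM in siblings and 17.0, 48.6 and 69.4 CPM in mutants. pbrm1l, related to the bromodomain subunit PBRM1, had 0.47 (interval -0.28 to 1.22) at 3.51 to 20.4 CPM in siblings and 6.80 to 23.5 CPM in mutants. brd7, a bromodomain subunit, had 0.09 (interval -0.14 to 0.31), with 139 to 179.5 CPM in siblings and 147 to 223 CPM in mutants. phf10, a PHD finger subunit, had -0.26 (interval -0.55 to 0.04), and its mutant range of 43.1 to 71.2 CPM extended below the sibling range of 53.9 to 88.8 CPM in 2 libraries. Of the non-canonical BAF genes, bicral was measured, at 0.518 to 5.87 CPM in siblings and 1.03 to 9.07 CPM in mutants, and it did not pass the filter.

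Over all assemblies, 3 of 19 tested subunit genes were called, 2 lower (actl6a and bcl7a) and 1 higher (bcl11aa, which passed the filter through 6 mutant libraries and 1 sibling library). Among all 12914 tested accessions 19.2% were called, 5.54% lower and 13.6% higher. The subunits' 15.8%, which includes bcl11aa and the targeted gene actl6a, is near that share. Without actl6a the subunits' share was 11.1% (2 of 18). The median log2 fold change was -0.07 over the 19 subunit genes and 0.04 over all tested accessions. Of the 16 subunit genes that were not called, 11 had a 95% interval that lay between -1 and 1, and 5 of them one between -0.5 and 0.5. The number of subunit genes called was 1 without mutant replicates 4, 5, 6 and 8 (actl6a). It was 2 when sibling replicate 1 was left out too (actl6a and bcl7a), where 18 were tested. Over all accessions the same fits called 511 and 590, against 2476 with all 15 libraries. actl6a was called in all 27 alternatives run, with log2 fold changes from -2.19 to -1.58 and adjusted p-values up to 0.00345, and it was the one subunit gene whose groups did not overlap, which held for 2.31% of all tested accessions.

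**Figure D3:**
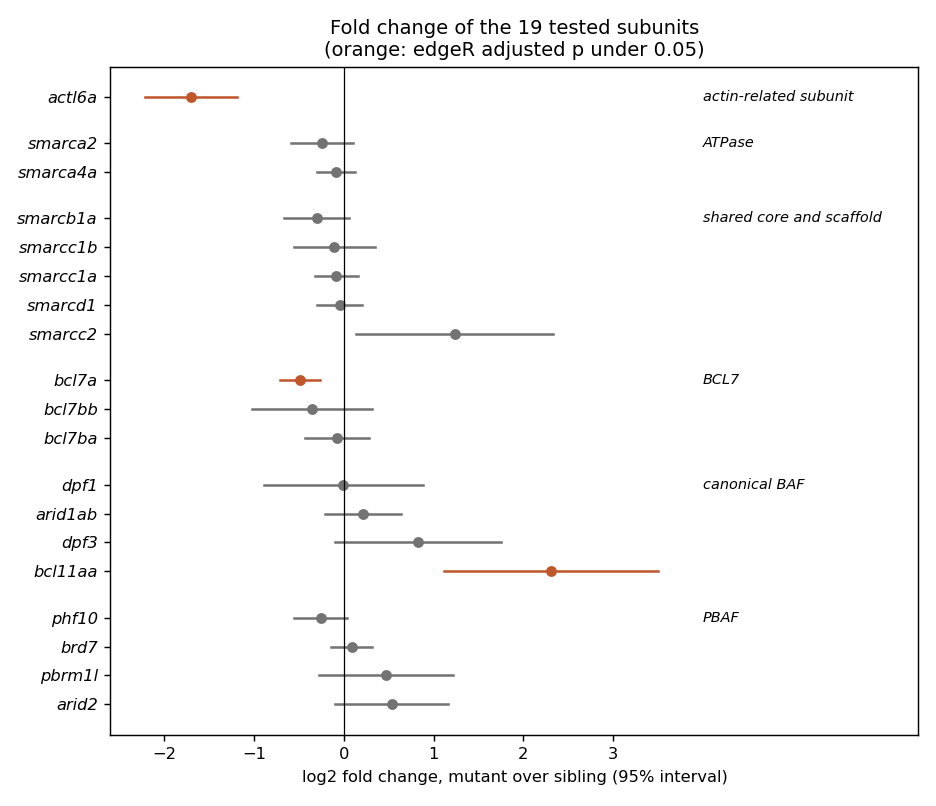
Log2 fold change of mutant over sibling with its 95% interval (x axis) for the 19 tested SWI/SNF subunit genes, grouped by role. actl6a at -1.70, bcl7a at -0.49 and bcl11aa at 2.30 are drawn in orange as called by edgeR, and the intervals of the remaining genes except smarcc2 include 0.

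Some subunit genes varied with a set of libraries from both genotypes. In 7 of the 19 tested genes (smarcc2, bcl7bb, arid1ab, dpf3, bcl11aa, arid2 and pbrm1l) mutant replicates 4, 5, 6 and 8 all lay above the other mutants, and sibling replicate 1 was the highest sibling. Over all tested accessions this held for 10.5%. Of these 7 genes, bcl11aa passed the filter through 6 mutant libraries and 1 sibling library, so its place among them rests on high mutants. Levels of different genes in 1 library are not independent, and the 7 of 19 was not tested against this share. In 2 genes, smarcb1a and bcl7ba, the same 4 mutants lay below the other mutants and sibling replicate 1 was the lowest sibling, which held for 10.8% of all tested accessions, a share like that of the subunits. The other 10 tested subunit genes showed neither order. arid2 is an example of the first order, with 53.5 CPM in sibling replicate 1 against 21.1 to 34.7 CPM in the other siblings, and 61.3 to 69.4 CPM in mutant replicates 4, 5, 6 and 8 against 17.0 to 35.8 CPM in the other mutants. For dpf3 the values were 38.2 against 10.4 to 22.1 CPM in siblings and 45.7 to 54.2 against 2.95 to 20.4 CPM in mutants. actl6a and both ATPase genes were among those that showed neither. The actl6a levels of mutant replicate 6, at 9.87 CPM, and of replicates 4, 5 and 8, at 35.6 to 38.9 CPM, stood at opposite ends of the mutant range.

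**Figure D4:**
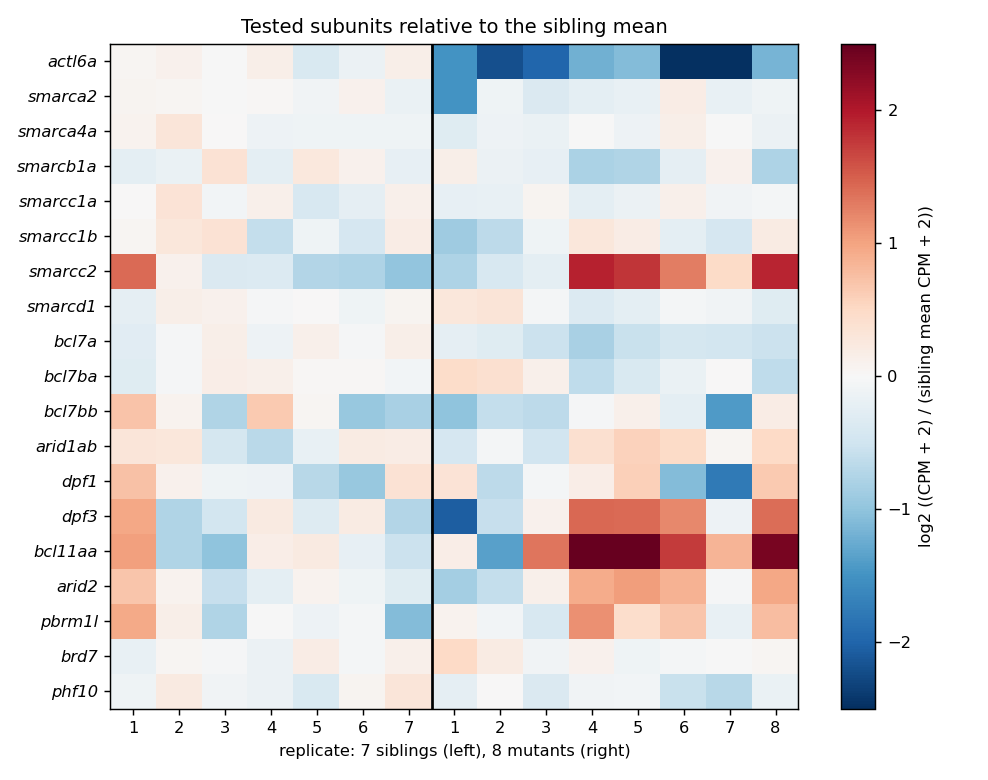
Level of each tested SWI/SNF subunit gene (rows, by role) in each library (columns, 7 siblings then 8 mutants) as log2 of CPM plus 2 over the sibling mean plus 2, with colours limited to 2.5 in each direction. The rows of smarcc2, dpf3, bcl11aa, arid2 and pbrm1l are red in sibling replicate 1 and in mutant replicates 4, 5, 6 and 8, while the actl6a row is blue in all mutants.

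Summed levels of endothelium, erythrocyte and leukocyte markers were highest in these 5 libraries within their groups. Not every single marker followed that order. For example, tie1 had 1 count in mutant replicate 8 and cd74a 0 counts in sibling replicate 1. esama had 140 counts in mutant replicate 6 against 156 in mutant replicate 2, which had a lower library total. The summed level of endothelium markers (15 of 20 with a row) was 79.3 to 157 CPM in sibling replicates 2 to 7, 1295 CPM in sibling replicate 1, 211 to 393 CPM in mutant replicates 1, 2, 3 and 7, and 876 to 1906 CPM in mutant replicates 4, 5, 6 and 8. Erythrocyte markers (11 of 13 with a row) stood at 80.3 to 144 CPM in sibling replicates 2 to 7, 2750.5 CPM in sibling replicate 1, 601 to 835 CPM in mutant replicates 1, 2, 3 and 7 and 2537 to 5855 CPM in the other mutants, and gata1a was at 0 in all siblings. Neuron markers (15 of 18 with a row) summed to 21.2 to 135 CPM in siblings, with replicate 1 highest. In mutants their sum was 122 to 172 CPM in replicates 4, 5, 6 and 8. It was 38.4 to 133 CPM in mutant replicates 1, 2, 3 and 7, and replicate 3 exceeded replicate 5. Among the neuron markers elavl4 was at 0 in all siblings, with a summed count of 2 over the 15 libraries. Leukocyte markers (11 of 14 with a row) summed to 110.2 to 192 CPM in sibling replicates 2 to 7 and 197 CPM in replicate 1. Most of the sum in sibling replicates 2 to 7 was rac2, at 251 to 361 counts, against 321 counts in replicate 1. Each other leukocyte marker had 0 to 10 counts in sibling replicates 2 to 7 and 0 to 88 in replicate 1. The leukocyte sum was 179 to 295 CPM in mutant replicates 1, 2, 3 and 7 and 344 to 566 CPM in the other mutants. Epidermis and skeletal muscle markers did not follow these libraries. Epidermis markers (13 of 15 with a row) summed to 468 to 2577 CPM in siblings, with 535 CPM in replicate 1, and to 1704 to 11512 CPM in mutants, lowest in replicate 5 and highest in replicates 6 and 7. Skeletal muscle markers (14 of 18 with a row) summed to 805 to 15536 CPM in siblings, highest in replicates 4 and 5. In mutants they summed to 514 to 4831 CPM, lowest in replicate 5. The genes myhz1.1, myhz2 and desma were at 0 in all mutants. Their summed counts over the 15 libraries were 4, 1 and 3, too few to resolve a difference. Markers of the labelled tissue, the pronephric tubule and duct (16 of 20 with a row), were found in every library. Among them gata3 was at 0 in all siblings, with a summed count of 7 over the 15 libraries. These duct markers summed to 3988 to 6035 CPM in siblings, lowest in replicate 1. Their sum was 2127 to 2647 CPM in mutant replicates 4, 5, 6 and 8 and 4859 to 7211 CPM in the other mutants. The part of these tissues in the subunit levels was not tested.

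Leaving out the 5 libraries changed the direction of several subunit genes. Without sibling replicate 1 and mutant replicates 4, 5, 6 and 8 the log2 fold change was -0.21 for dpf3, -0.12 for arid2 and -0.20 for arid1ab, against 0.83, 0.53 and 0.21 with all 15 libraries. bcl7ba and smarcd1, with negative values in all 15 libraries, had positive ones in the smaller set. Each of these genes stayed short of the threshold in both fits. actl6a was at -2.18 and smarca4a at -0.17 in the smaller set, and bcl11aa did not pass its filter.

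**Figure D5:**
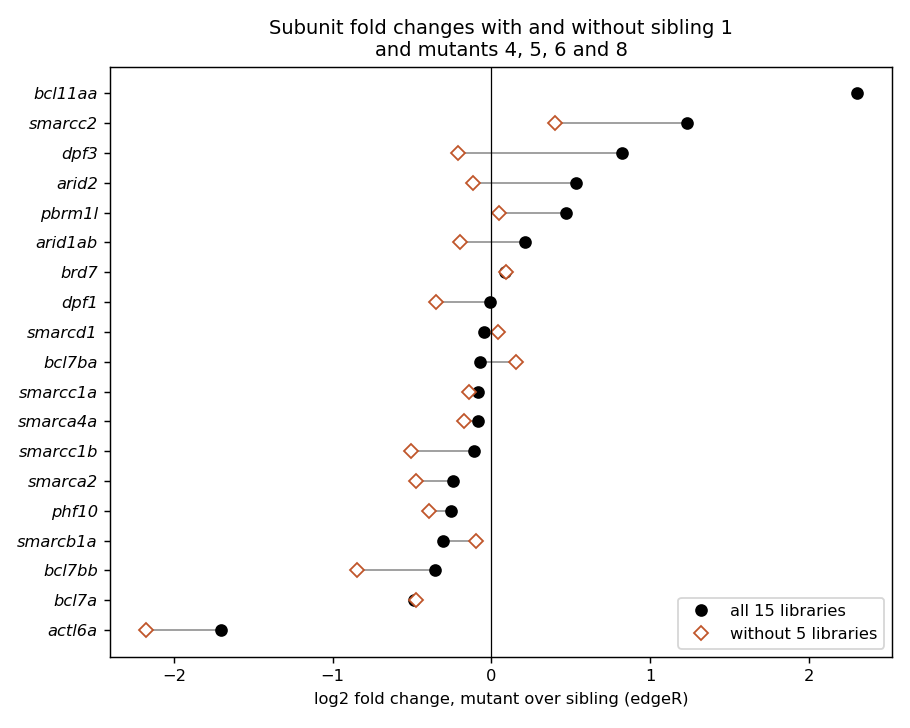
Log2 fold change of mutant over sibling (x axis) for the 19 tested SWI/SNF subunit genes with all 15 libraries (black circles) and without sibling replicate 1 and mutant replicates 4, 5, 6 and 8 (open diamonds, absent for bcl11aa). actl6a moves from -1.70 to -2.18 and bcl7a from -0.49 to -0.47, while dpf3, arid2, arid1ab, bcl7ba and smarcd1 cross 0.

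Summed over the 28 subunit genes, the level was 1367 ± 53.5 CPM (SD, n = 7; range 1306 to 1463) in siblings and 1263 ± 58.1 CPM (SD, n = 8; range 1168 to 1325) in mutants. Without actl6a the sums ran from 1212 to 1372 CPM in siblings and from 1148 to 1315 CPM in mutants, and the groups overlapped. By role, the canonical BAF sum was 71.6 to 145 CPM in siblings, 67.2 to 96.5 CPM in mutant replicates 1, 2, 3 and 7 and 162 to 201 CPM in mutant replicates 4, 5, 6 and 8. The PBAF sum, at 244 to 293 CPM in siblings and 239 to 323 CPM in mutants, and that of the shared core, at 420.2 to 516 and 386 to 468 CPM, overlapped between genotypes.

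Genes of other chromatin remodelling families were measured for comparison. actl6a is itself a subunit of INO80 and TIP60 complexes. Of 20 tested genes of the INO80, TIP60 and SRCAP list 4 were lower and 0 higher, against backgrounds of 5.54% lower and 13.6% higher. Calls in either direction made up 20% of this list and 19.2% of all tested accessions, so the list was near that share. An unadjusted p under 0.05 was found for 5 of the 20. DESeq2 called 4, against 19.9% of all, and voom with quality weights 10, against 43.1%. The 4 lower genes were led by ino80b, an INO80 subunit (-0.70, SE 0.19, edgeR adjusted p = 0.0186), and mrgbp, a TIP60 subunit (-0.39, SE 0.11, edgeR adjusted p = 0.0225), with 5 and 6 of 8 mutants below every sibling. In mutant replicates 4, 5, 6 and 8 mrgbp was at 69.5 to 80.0 CPM, below the 81.6 to 103 CPM of the other mutants, and sibling replicate 1 was the lowest sibling at 93.8 CPM. In the ISWI list 1 of 8 tested genes was called lower by edgeR. Another count, at an unadjusted p under 0.05, was 5 of 8, against 4395 of all 12914 tested accessions. DESeq2 called 2 of the 8, against 19.9% of all, and voom with quality weights 3, against 43.1%. The edgeR call was chrac1, a histone-fold subunit, which fell from 164 ± 21.7 to 116 ± 29.1 CPM (log2 fold change -0.51, edgeR adjusted p = 0.0273). chrac1 followed the same libraries, at 77.1 to 99.9 CPM in mutant replicates 4, 5, 6 and 8, 121 to 157 CPM in the other mutants and 136 CPM in sibling replicate 1, the lowest sibling. The summed level of the 9 ISWI genes was 676 to 805 CPM in siblings and 587 to 664 CPM in mutants, so the groups did not overlap in that sum. How often sums over as many genes separate was not computed, and the genes with the highest levels weigh most in it.

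The CHD and NuRD list had 0 calls among 10 tested genes by edgeR, 2 at an unadjusted p under 0.05, and 0 by DESeq2 and by voom with quality weights. Shares called over all tested accessions were 19.2% by edgeR, 19.9% by DESeq2 and 43.1% by voom. Of 20 tested Polycomb genes, whose products oppose SWI/SNF at many loci, 2 were higher and 0 lower, against a background of 13.6% higher. Calls in either direction made up 10% of this list, against 19.2% of all. An unadjusted p under 0.05 was found for 8 of the 20, against 4395 of all 12914 tested accessions. DESeq2 called 3 and voom with quality weights 9. The 2 higher genes were bcor, which encodes a corepressor in a PRC1 variant, with 1.97 (SE 0.46, edgeR adjusted p = 0.00758), and jarid2b, which encodes a PRC2 cofactor, with 0.57 (SE 0.15, edgeR adjusted p = 0.0132). Both were highest in mutant replicates 4, 5, 6 and 8 and, among siblings, in replicate 1. bcor was at 82.6 to 96.5 CPM in those mutants and 2.95 to 50.3 CPM in the others, and at 29.5 CPM in sibling replicate 1 against 8.03 to 15.5 CPM in the other siblings. jarid2b was at 95.9 to 117.5 CPM in those mutants and 67.1 to 84.7 CPM in the others. Of the further SWI/SNF genes 3 were tested, ss18l2 and the beta-actin genes actb1 and actb2. edgeR called 0 of them, 1 had an unadjusted p under 0.05, and 0 were called by DESeq2 and by voom with quality weights. Without mutant replicates 4, 5, 6 and 8, with or without sibling replicate 1, no gene of these 5 lists was called. Those fits called few accessions at all, 511 with sibling replicate 1 and 590 without it, against 2476 with all libraries. In the set without sibling replicate 1 the log2 fold changes were -0.42 for ino80b, -0.33 for mrgbp, -0.32 for chrac1, 1.27 for bcor and 0.31 for jarid2b, with edgeR adjusted p-values of 0.130 to 0.293. Median log2 fold changes with all libraries were -0.05 for the INO80, TIP60 and SRCAP list, -0.23 for ISWI, -0.01 for CHD and NuRD and -0.14 for Polycomb.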

How the data were processed

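Whole-number counts per RefSeq accession were deposited in 2 tables, 1 per sequencing index per the file headers, with library barcodes as columns. The submitters' processing notes name cutadapt, FastQC, STAR, featureCounts and edgeR and the build GRCz11, without versions or roles, and whether counting used strand or distinct molecules is not given in the sources used here. Accessions missing from either table were taken as 0 there. Symbols were taken from RefSeq's gene table for GRCz12tu, with versions ignored, and 20452 of 33298 accessions (61.4%) matched. Counts of transcripts of one gene, and of close paralogs, depend on how reads were assigned. In 49 pairs of libraries within groups the chi-square per degree of freedom was 8.39 to 39.3, so none matched within sampling noise. Floors cover counting error only.

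The fit used edgeR 4.0.16 in R 4.3.3 with TMM factors (0.867 to 1.12), the filterByExpr filter, robust glmQLFit with bias adjustment and Benjamini-Hochberg adjustment over all tested accessions. A standard error was computed as the size of a log2 fold change over the root of its F statistic. Alternatives used DESeq2 1.42.0 and limma 3.58.1. Scripts were tested on simulated data. Python 3.11.15, pandas 2.3.3, numpy 2.4.6 and matplotlib 3.10.9 were used for the remaining steps. The subunit list, gene lists and tests were chosen with earlier results of these data known. Values in every library were given for actl6a, actl6b, smarca4a and called subunit genes, and from each other remodelling family up to 2 called genes with the smallest p-values were named. smarcc2 was described at greater length after its values were seen.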

Additional observations from a re-analysis of the deposited data

Results flagged for a closer look

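In 38 groups of libraries (19 tested subunit genes in each genotype), 5 had a highest or lowest library that was separated from the rest past the 95% value of Dixon's test. For normally distributed values chance alone would separate about 1.9 of 38, or 1 in 20. The levels used were CPM without a log, and whether they were normally distributed was not tested. Sibling replicate 1 was the highest sibling in 3 of the 5 groups, at 27.4 CPM for smarcc2 (next 9.84), 38.2 CPM for dpf3 (next 22.1) and 53.5 CPM for arid2 (next 34.7). Mutant replicate 1 gave the others, as the lowest mutant for smarca2, at 27.3 CPM (next 62.1), and the highest for brd7, at 223 CPM (next 183). Levels of different genes in 1 library are not independent.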

How the results depend on the processing

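Of 504 fits of single subunit genes under alternatives, 463 kept direction and side of the threshold, 7 gained a call (smarcb1a, smarcc2, bcl7ba, dpf3 and arid2 with voom, bcl7bb with detected accessions as a term, and smarcc2 without sibling replicate 1), 2 lost one and 32 changed direction, all 32 in genes that were not called. The cause was not tested. The count of called accessions (2476) was 5566 with voom quality weights, 3960 with no filter, 1281 with detected accessions as a term, 1631 with no bias adjustment and 1031 at an adjusted p under 0.01. It was 511 without mutant replicates 4, 5, 6 and 8, 590 when sibling replicate 1 was left out too (both sets chosen after seeing the data, as was the fit with no bias adjustment), and 1621 to 3390 with 1 library left out, lowest without mutant replicate 8. Called subunit genes numbered 8 with voom quality weights, 1 without mutant replicates 4, 5, 6 and 8, and 2 to 4 with 1 library left out. The labels do not say whether replicate numbers are a pairing, and the main fit used none. Same-numbered libraries had correlations of -0.536 to 0.257, with 4 of 7 over 0.1. These cannot decide it, as sibling replicate 1 and mutant replicates 4, 5, 6 and 8 stood apart from the other libraries. With the replicate block 1097 accessions and 2 subunit genes were called, bcl11aa not being tested. actl6a was then at -1.91 (edgeR adjusted p = 0.00345).

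Direction changed for dpf1 (0.043 with upper quartile scaling, 0.24 with voom, 0.016 with accessions summed per symbol, -0.22 to 0.23 with 1 library left out) and brd7 (-0.0013 with no filter, -0.023 to 0.115 with 1 library left out). With voom it also did for smarcc1b (0.13) and bcl7bb (0.10). With detected accessions as a term it did for smarcc2 (-0.29), smarcd1 (0.15), bcl7ba (0.23), arid1ab (-0.13), dpf3 (-0.55), arid2 (-0.24) and pbrm1l (-0.29). Without mutant replicates 4, 5, 6 and 8 the values were -0.38 for smarcc2, 0.076 for smarcd1, 0.20 for bcl7ba, -0.27 for arid1ab, -0.56 for dpf3, -0.33 for arid2 and -0.36 for pbrm1l. Without sibling replicate 1 as well they were 0.043 for smarcd1, 0.16 for bcl7ba, -0.20 for arid1ab, -0.21 for dpf3 and -0.12 for arid2. Under 10 CPM, few counts limit what can be resolved. Such levels were found for bcl11aa in every sibling and in mutant replicates 1, 2 and 7, and for dpf1, pbrm1l and smarcc2 in part of the libraries. They were also found for dpf3 in mutant replicate 1 (2.95 CPM) and for actl6a in mutant replicate 6 (9.87 CPM).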
